A study of Mus musculus with 47 samples.

Results

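C2C12 iMyoD1 cultures that had differentiated for 120 h without doxycycline (dox) were separated by size, and the RNA of the material held back by a 40 µm strainer was compared with the RNA of the material that passed through it. The retained material was named the myotube-enriched fraction and the flow-through the myoblast-enriched fraction. Each fraction had 3 biological replicates, so that 6 of the 47 libraries of the series entered this comparison. The C2C12 line consists of immortalized mouse myoblasts, and its iMyoD1 derivative is a polyclonal population that keeps its endogenous *Myod1* and carries a further Halo-tagged *MyoD1* behind a dox-responsive promoter. All 6 samples carried this transgene, were differentiated by serum withdrawal and received no dox. The fractions were defined by size after mild trypsin treatment and not by a marker, so that each may hold cells of the other kind. In bulk RNA of this kind, fewer cells of a type and less RNA per cell cannot be told apart.

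When serum is withdrawn, C2C12 myoblasts leave the cell cycle, express myogenin and fuse into multinucleated myotubes, which then assemble sarcomeres and the membrane triads that couple excitation to contraction. A share of the cells remains mononucleated. These include reserve cells, which are quiescent and keep satellite cell genes such as *Pax7*, and myocytes that have differentiated without fusing. MyoD1 binds the E-box CAGCTG and, with myogenin and the MEF2 factors, activates muscle genes.

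The total estimated count was 21686948, 26381360 and 25408844 in replicates 1, 2 and 3 of the myotube-enriched fraction and 21159855, 31387633 and 24920646 in those of the myoblast-enriched fraction. Levels below are counts scaled to library size (CPM) scaled with edgeR's TMM factors over all libraries of the series. Myotube-enriched replicate 2 stood apart, with Spearman correlations of 0.966 and 0.968 to the other libraries of its fraction, which correlated at 0.982 with each other. Myotube-enriched replicate 1 was closer to myoblast-enriched replicate 3 (0.988) than to either library of its own fraction. Deviations from the fraction means correlated at 0.413, 0.117 and 0.189 between libraries that shared replicate number 1, 2 or 3. Myotube-enriched replicate 3 correlated more with myoblast-enriched replicate 2 (0.285), and no label says that a number marks a shared culture. The pairing is thus inferred. Values fitted with the replicate number as a covariate are given where they change a call.

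Promoter sequences of 4 genes are shown because the windows of the genes that were higher and of those that were lower in the myotube-enriched fraction held the motifs marked here at different rates. Each window runs from 250 bases before to 50 bases after a RefSeq transcription start on GRCm38.p6, 5′ to 3′ on the strand of the gene. In *Casq1*, the calcium store protein of the triad (chr1:172219846-172220145, minus strand), and *Pgam2*, the muscle phosphoglycerate mutase (chr11:5803747-5804046, minus strand), capitals mark the E-box CAGCTG. It begins 195 bases before the start in *Casq1* and 125 bases before it in *Pgam2*.
Casq1: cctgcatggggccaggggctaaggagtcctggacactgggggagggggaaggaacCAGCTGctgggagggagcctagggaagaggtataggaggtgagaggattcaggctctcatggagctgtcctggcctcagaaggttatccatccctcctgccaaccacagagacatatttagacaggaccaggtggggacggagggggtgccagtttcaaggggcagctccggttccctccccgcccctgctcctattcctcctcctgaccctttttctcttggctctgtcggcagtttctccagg
Pgam2: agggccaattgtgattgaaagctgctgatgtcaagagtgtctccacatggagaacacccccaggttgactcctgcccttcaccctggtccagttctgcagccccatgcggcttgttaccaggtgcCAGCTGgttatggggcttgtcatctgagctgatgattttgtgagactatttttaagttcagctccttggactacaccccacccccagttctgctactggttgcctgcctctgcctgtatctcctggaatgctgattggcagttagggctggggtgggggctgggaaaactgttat
In *Ccnb2*, cyclin B2 (chr9:70421505-70421804, minus strand), and *Cdc20*, an activator of the anaphase-promoting complex (chr4:118437294-118437593, minus strand), capitals mark TTTGAA, a form of the cell cycle genes homology region found near the start of many mitotic genes. *Ccnb2* holds it 167 bases before and 4 bases after the start, and *Cdc20* holds it 18 bases before the start.
Ccnb2: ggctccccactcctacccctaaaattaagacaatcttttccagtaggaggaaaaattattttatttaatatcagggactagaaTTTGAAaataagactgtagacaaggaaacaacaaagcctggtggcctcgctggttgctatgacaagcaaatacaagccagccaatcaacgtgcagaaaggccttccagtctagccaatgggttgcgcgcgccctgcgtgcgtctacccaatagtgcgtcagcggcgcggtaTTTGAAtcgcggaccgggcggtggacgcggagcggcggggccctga
Cdc20: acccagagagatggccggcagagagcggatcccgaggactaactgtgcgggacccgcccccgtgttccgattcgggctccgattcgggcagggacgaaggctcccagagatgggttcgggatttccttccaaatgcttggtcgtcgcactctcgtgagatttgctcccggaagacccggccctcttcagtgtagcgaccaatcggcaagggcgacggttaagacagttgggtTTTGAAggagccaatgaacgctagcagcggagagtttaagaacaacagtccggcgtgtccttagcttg

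Among the lists examined, those of the contractile apparatus, the triad and muscle energy metabolism had the highest median log2 fold changes and that of mitosis the lowest. Of 14023 genes tested, 80 were higher in the myotube-enriched fraction with an edgeR adjusted p below 0.05 and more than a 2-fold difference (0.57% of the genes tested) and 2 were lower (0.0143%). With the replicate number as a covariate, 322 genes were higher (2.3%) and 158 lower (1.13%), and these held all 80 and both of the genes that passed without it. DESeq2 gave 399 higher (2.85%) and 61 lower (0.435%) genes. The 3 myotube-enriched libraries lay above the 3 myoblast-enriched ones for 10.8% of all genes tested and below them for 12.3%, and every pair was higher for 20.3%. Leaving aside the lists of mitochondrial and ribosomal genes, 17 of the 80 higher genes stood in a list, as did 76 of the 322 and 37 of the 158, so that most genes that passed belong to none of them. The counts changed with each library left out. Without myotube-enriched replicate 2, 44 genes were higher and 3 lower, and without myotube-enriched replicate 1, 206 were higher and 27 lower. No gene was higher without myotube-enriched replicate 3, myoblast-enriched replicate 1 or myoblast-enriched replicate 2 (1945, 1533 and 1917 genes at an unadjusted p under 0.05), and 1 was higher without myoblast-enriched replicate 3. No gene was lower without any of these 4 libraries. When the 5 libraries of the dox-treated fractions were added to the fit, no gene passed among 15008 (1262 at an unadjusted p under 0.05).

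Of the genes that passed without the replicate number and reached 5 CPM, *Ano5*, *Cyfip2* and *Ampd1* had the largest log2 fold changes. *Ano5* encodes a muscle anoctamin that is mutated in limb-girdle muscular dystrophy. Its level was 6.21, 18.6 and 4.46 CPM in myotube-enriched replicates 1 to 3 and 0.656, 0.352 and 0.217 CPM in the myoblast-enriched replicates (log2 fold change 4.62, standard error 0.687, edgeR adjusted p = 0.0401). Every myotube-enriched library lay above every myoblast-enriched one, as it did for the other genes of this group. *Cyfip2*, a subunit of the WAVE actin regulatory complex, was at 6.89, 13.4 and 14.4 CPM against 0.656, 0.845 and 1.17 CPM (log2 fold change 3.71). *Ampd1*, the muscle AMP deaminase, was at 2.63, 10.4 and 4.78 CPM against 0.504, 0.423 and 0.522 CPM (log2 fold change 3.65). The group also held *Armh4* (log2 fold change 3.56), *Fsd2* (3.22), *Tcap* (2.95), *Casq1* (2.79), the splicing regulator *Rbfox1* (2.77) and *Pgam2* (2.74).

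**Figure D1:**
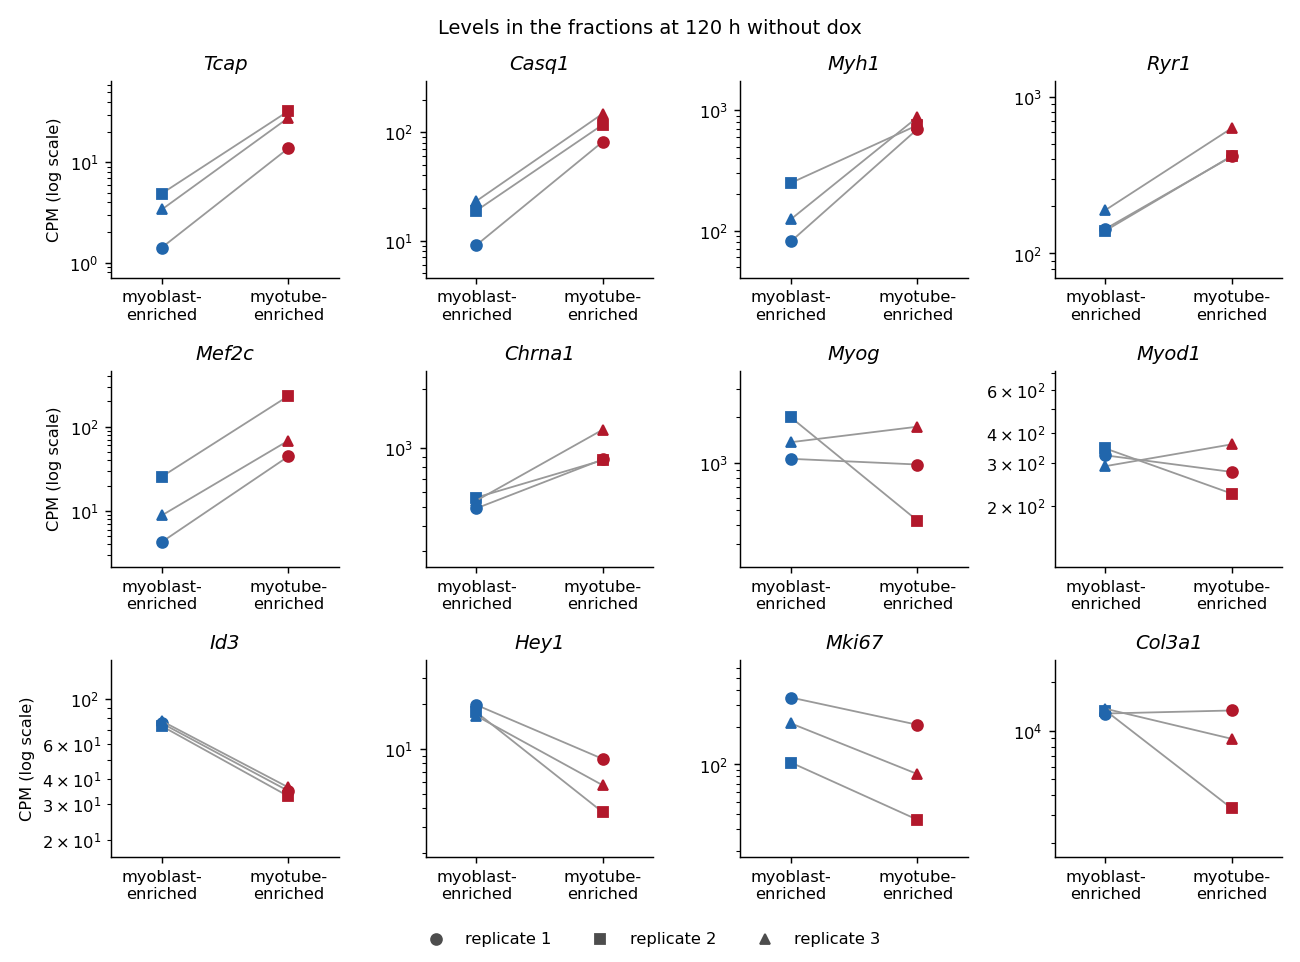
Level of 12 genes in each library (CPM, log axis), with the libraries of one replicate number joined by a line, the myoblast-enriched fraction in blue and the myotube-enriched fraction in red. The lines of *Tcap*, *Casq1*, *Myh1*, *Ryr1*, *Mef2c* and *Chrna1* rise in all 3 pairs, those of *Id3*, *Hey1* and *Mki67* fall in all 3, and those of *Myog*, *Myod1* and *Col3a1* cross.

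Genes of the thick filament and M-band, which hold the motor and its scaffold, were higher as a group. Of 24 listed genes, 23 were tested, 6 were higher without the replicate number and 20 with it, and the median log2 fold change of the 23 was 1.69, against a median of 0.00 over all genes. With the replicate number, 14, 22 and 3 were higher when pair 1, 2 or 3 was left out. Their summed level was 12390, 16761 and 19313 CPM in the myotube-enriched replicates and 3772, 6619 and 6098 CPM in the myoblast-enriched ones. *Myh1*, the fast IIx myosin heavy chain (GRCm38 chromosome 11, 67200052 to 67224575), was at 697, 751 and 875 CPM against 81.6, 249.5 and 125 CPM (log2 fold change 2.37, standard error 0.387, edgeR adjusted p = 0.0467). The level was even across the 3 myotube-enriched libraries and varied about the myoblast-enriched mean of 152 CPM with an SD of 87.2 (n = 3). *Myh3*, the embryonic myosin heavy chain, was at 3476, 3851 and 4157 CPM against 1082, 959.8 and 1386 CPM (log2 fold change 1.77, standard error 0.221, edgeR adjusted p = 0.0321). *Ttn*, the giant spring protein titin, had a log2 fold change of 1.66 and the myosin-binding *Mybpc1* of 2.18, and both passed.

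*Myh4*, the fast IIb myosin heavy chain, ranked first in the list with a log2 fold change of 2.70, and passed only with the replicate number (edgeR adjusted p = 0.0281, and 0.0868 without it). It was at 65.1, 59.8 and 93.8 CPM in the myotube-enriched replicates and at 3.63, 22.5 and 7.74 CPM in the myoblast-enriched ones, with no overlap. The perinatal *Myh8* passed in the same way, at 118, 267 and 231 CPM against 17.2, 74.9 and 35.1 CPM. *Myh7*, the slow myosin heavy chain, was at 144, 56.0 and 415 CPM against 42.1, 72.2 and 113 CPM and did not pass in either fit. Its myotube-enriched replicate 2 lay within the myoblast-enriched range. *Myh13*, the extraocular myosin, had the lowest log2 fold change of the list, -0.63, at levels between 0.877 and 2.85 CPM.

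Several of these genes overlap antisense transcripts, among them *Myh1*, *Myh2* and *Ttn*, and the strandedness of the counting is not given in the sources used here, so reads of the partners cannot be told apart.

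Compared per transcript length, *Myh3* was the most abundant of 6 sarcomeric heavy chains in every library. It held 76.9%, 76.8% and 71.7% of their summed length-scaled abundance (TPM) in the myotube-enriched replicates and 88.0%, 69.3% and 83.0% in the myoblast-enriched ones. *Myh1* held 15.5%, 15.2% and 15.2% in the myotube-enriched replicates and 6.64%, 18.1% and 7.52% in the myoblast-enriched ones. The share of *Myh1* was thus about even in the myotube-enriched fraction, and in myoblast-enriched replicate 2 it was above all of these while the other 2 libraries were below. The summed TPM of the 6 chains was 1238, 1402 and 1442 against 368.5, 353.2 and 483.2, with no overlap.

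**Figure D2:**
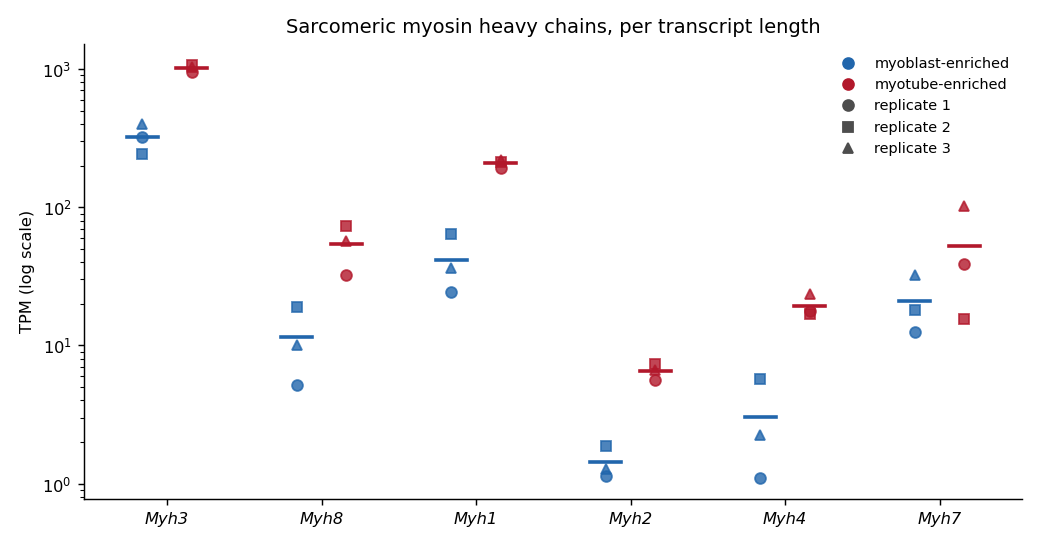
Level of 6 sarcomeric myosin heavy chains per transcript length (TPM, log axis), with 1 point per library, the shape giving the replicate and the horizontal bar the mean of the 3 libraries. *Myh3* is highest in both fractions, and only *Myh7* overlaps between them, through myotube-enriched replicate 2.

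Thin filament genes carry actin, its regulators and nebulin. All 18 listed genes were tested, 1 was higher without the replicate number and 10 with it, and the median log2 fold change was 1.10. The 10 became 1, 12 and 0 when pair 1, 2 or 3 was left out. *Neb*, the template of the thin filament, was at 844, 914 and 1118 CPM against 189, 269 and 334 CPM (log2 fold change 1.89, standard error 0.245, edgeR adjusted p = 0.0349). The 2 sarcomeric actins had smaller differences. *Acta1*, skeletal actin, was at 4676, 4775 and 8937 CPM against 2388, 3709 and 3365 CPM (log2 fold change 0.98, edgeR adjusted p = 0.201). *Actc1*, the cardiac actin that developing muscle uses, was at 1486, 1117 and 2854 CPM against 1037, 1240.2 and 1735 CPM (log2 fold change 0.47), and its ranges overlapped. Neither passed with the replicate number. *Tnni3*, cardiac troponin I, was lowest of the list at a log2 fold change of -0.08.

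Of 20 tested genes of the Z-disc and intermediate filaments, 1 was higher without the replicate number and 12 with it, at a median log2 fold change of 1.33. The 12 became 9, 15 and 3 without pair 1, 2 or 3. *Tcap*, which caps titin at the Z-disc, was at 13.8, 32.5 and 27.9 CPM against 1.41, 4.89 and 3.39 CPM (log2 fold change 2.95, standard error 0.478, edgeR adjusted p = 0.0465). *Des*, the muscle intermediate filament desmin, was at 1739, 2351 and 2448 CPM against 824, 1256 and 933 CPM and passed with the replicate number (log2 fold change 1.15, edgeR adjusted p = 0.0202). *Vim*, vimentin, which mononucleated cells express, was at 3095, 1392 and 2506 CPM against 3522, 2459.6 and 3819 CPM. It was lower in all 3 pairs and did not pass. *Cryab*, a small heat shock protein, had the smallest difference of the list, 0.38.

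The triad list had 19 genes tested, of which 5 were higher without the replicate number, 11 with it and all 19 had a positive log2 fold change (median 1.499). The 11 became 9, 15 and 4 without pair 1, 2 or 3. *Casq1*, whose promoter is shown above, was at 82.1, 118 and 149 CPM against 9.08, 18.9 and 23.2 CPM (log2 fold change 2.79, standard error 0.363, edgeR adjusted p = 0.0349). *Ryr1*, the calcium release channel, was at 418, 422 and 635 CPM against 144, 140.0 and 189.7 CPM (log2 fold change 1.66). The sodium channel *Scn4a* (2.37), the calcium-binding *Hrc* (1.95) and sarcalumenin *Srl* (1.53) also passed. *Clcn1*, the muscle chloride channel, ranked first in the list (3.18) at levels up to 7.30 CPM and passed with the replicate number only, and *Jph2*, a junctophilin, had the smallest (0.42).

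Genes of the neuromuscular junction differed less. Of 12 tested, 2 were higher without the replicate number and 3 with it, at a median log2 fold change of 0.92. The 3 became 2, 6 and 1 without pair 1, 2 or 3. *Musk*, the kinase that organizes the postsynapse, was at 60.1, 59.9 and 51.7 CPM against 27.6, 23.3 and 32.0 CPM (log2 fold change 1.07, standard error 0.163, edgeR adjusted p = 0.0403), and *Ache*, acetylcholinesterase, rose by a log2 fold change of 1.64. The receptor subunits *Chrna1* (log2 fold change 0.93) and *Chrng*, the fetal one (1.21), did not pass by both criteria in either fit, although neither overlapped between the fractions. *Colq*, the collagen tail of acetylcholinesterase, was highest at 2.43 and passed with the replicate number only, and *Dok7* was lowest at -0.04.

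In muscle energy metabolism, 2 of 20 tested genes were higher without the replicate number and 11 with it, and all 20 log2 fold changes were positive (median 1.48). The 11 became 7, 15 and 3 without pair 1, 2 or 3. *Pgam2* was at 64.2, 164 and 152 CPM against 12.1, 24.7 and 21.1 CPM (log2 fold change 2.74, standard error 0.403, edgeR adjusted p = 0.0401). *Ckm*, muscle creatine kinase, was at 451, 822 and 848 CPM against 199, 320.1 and 269.7 CPM and passed with the replicate number (log2 fold change 1.42, edgeR adjusted p = 0.00988). *Ldha*, lactate dehydrogenase A, had the smallest difference, 0.10. Of the dystrophin-glycoprotein complex, 1 of 14 tested genes was higher with the replicate number and none without it (median 0.53), and it did not pass without pair 1 or pair 3. Of the muscle ubiquitin ligases, 2 of 11 were higher with the replicate number and none without it (median 0.77). The median was 0.35 without myotube-enriched replicate 3 and 0.48 without myoblast-enriched replicate 1, and the 2 calls became 2, 6 and 0 without pair 1, 2 or 3.

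**Figure D3:**
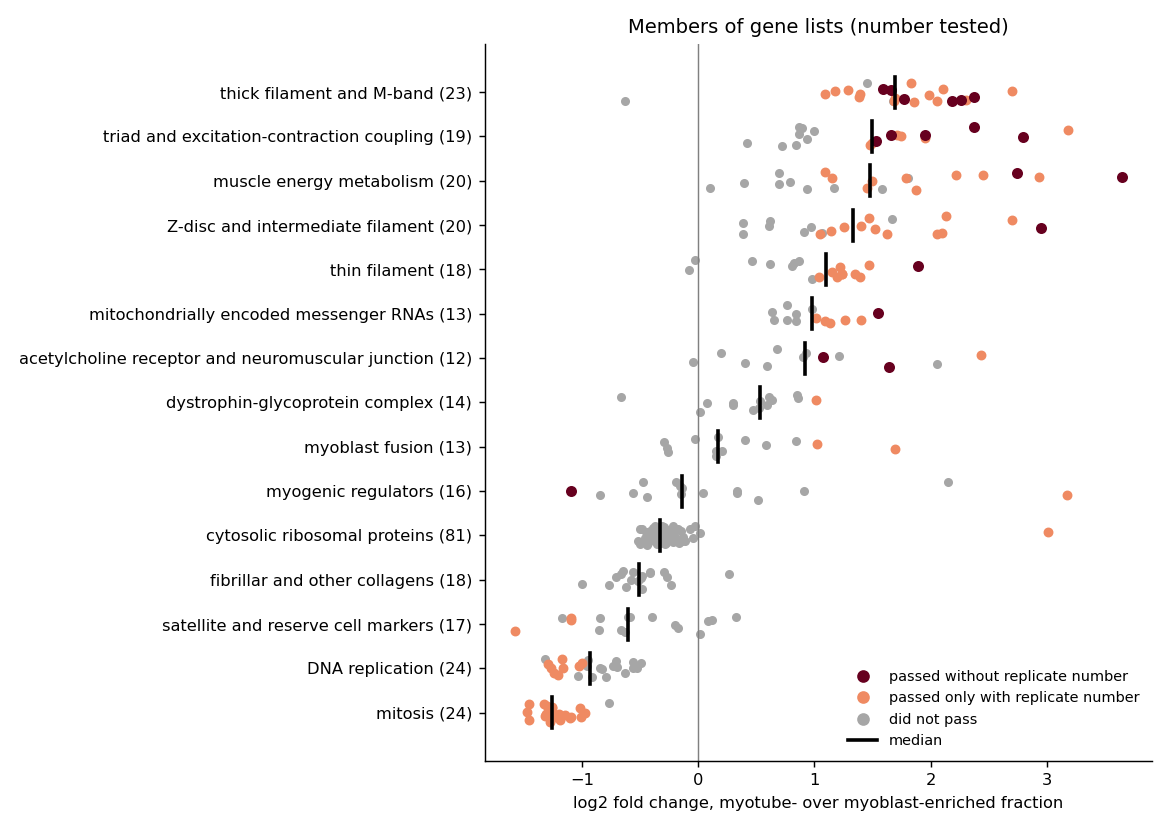
Log2 fold change of each tested gene in 15 lists, myotube- over myoblast-enriched fraction, with 1 point per gene and a black bar at the list's median. Dark points passed without the replicate number, orange points only with it and grey points in neither fit, and the medians run from 1.69 for the thick filament to -1.26 for mitosis.

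Of 16 regulators of myogenesis tested, 1 was lower without the replicate number, and 1 was higher and 1 lower with it. Without pair 1, 2 or 3 the higher calls were 1, 3 and 1 and the lower calls 0, 1 and 0. The median log2 fold change was -0.14, and -0.02, 0.03 and -0.07 without myotube-enriched replicate 1, myotube-enriched replicate 2 or myoblast-enriched replicate 2. *Myod1* was at 277, 225 and 359 CPM against 323, 345 and 292 CPM (log2 fold change -0.14, standard error 0.198, edgeR adjusted p = 0.765). *Myog*, myogenin, was at 982, 428 and 1719.96 CPM against 1068, 1974 and 1367 CPM (log2 fold change -0.48, standard error 0.460), and its ranges overlapped. For both genes the range of the flow-through overlapped that of the retained material. *Mef2c*, a MEF2 factor of maturing muscle, was at 44.4, 231 and 68.4 CPM against 4.29, 25.6 and 8.87 CPM. It was higher in the myotube-enriched library of every pair, and passed with the replicate number (log2 fold change 3.18, standard error 0.149, edgeR adjusted p = 0.00327) and not without it (edgeR adjusted p = 0.122). *Mef2a* and *Mef2d* had log2 fold changes of 0.33 and 0.52 and did not pass. *Myf6*, a late myogenic factor, was at 1.21, 1.08 and 5.47 CPM against 0.454, 0.810 and 0.478 CPM and did not pass.

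*Id3*, which binds E proteins and so restrains MyoD1, was the regulator that passed as lower. It was at 34.99, 32.9 and 36.4 CPM in the myotube-enriched replicates and 75.6, 73.2 and 77.6 CPM in the myoblast-enriched ones (log2 fold change -1.10, standard error 0.125, edgeR adjusted p = 0.0286). The related *Id1* was at 26.7, 25.8 and 29.3 CPM against 36.2, 42.4 and 44.0 CPM, with no overlap, and did not pass (log2 fold change -0.56). *2810468N07Rik*, which overlaps *Sox8* on the opposite strand, was the only other gene that passed as lower without the replicate number (log2 fold change -1.43).

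Among the genes of the fusion machinery, 2 of 13 tested were higher with the replicate number and none without it (median log2 fold change 0.17, and 0.27 and 0.26 without myotube-enriched replicate 2 or myoblast-enriched replicate 1). The 2 became 1, 3 and 1 without pair 1, 2 or 3. These were *Cav3* (log2 fold change 1.65 with the replicate number), the caveolin of the muscle membrane, and *Dysf*, the membrane repair protein dysferlin. The fusogens were not among them. *Mymk*, myomaker, was at 658, 807 and 1201 CPM against 413, 595 and 506 CPM (log2 fold change 0.84, edgeR adjusted p = 0.183), with no overlap. *Mymx*, myomerger, was at 177, 102 and 315 CPM against 126, 223 and 193 CPM (log2 fold change 0.15), with overlap. *Cd9*, a tetraspanin, was lowest at -0.30.

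The 5 adhesion genes that the study pursued as candidates did not pass in either fit. Their median log2 fold change was 0.38, and -0.12 without myotube-enriched replicate 2. *Cdh23*, a large cadherin, was at 18.4, 15.4 and 14.8 CPM against 12.8, 12.1 and 12.9 CPM (log2 fold change 0.38, edgeR adjusted p = 0.311), with no overlap. *Mcam* was at 3.47, 16.2 and 3.08 CPM against 7.67, 2.29 and 4.78 CPM and *Cadm4* at 2.84, 25.6 and 5.28 CPM against 4.54, 3.66 and 4.74 CPM. For both, myotube-enriched replicate 2 alone carried the higher mean. *Itga3* had a log2 fold change of -0.20 and *Cdh15*, M-cadherin, of -0.27.

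Genes of mitosis were lower in the myotube-enriched fraction in every pair of libraries. All 24 listed genes were tested, none passed without the replicate number, and 23 were lower with it. All 24 were lower in 3 of 3 pairs, which held for 26.9% of all genes tested, and their median log2 fold change was -1.26. Only 2 of the 24 were lower without overlap between the fractions, which held for 12.3% of all genes tested. *Mki67*, the proliferation marker Ki-67, was at 209.5, 35.8 and 83.7 CPM in myotube-enriched replicates 1 to 3 and at 348, 104 and 215 CPM in the myoblast-enriched replicates of the same number. Its level thus varied more between the replicate numbers than between the fractions, and the groups overlapped. The log2 fold change was -1.19 with the replicate number (standard error 0.183, edgeR adjusted p = 0.0205) and -1.01 without it (standard error 0.625, edgeR adjusted p = 0.464). *Cdk1*, the mitotic kinase, was at 45.5, 15.5 and 35.2 CPM against 102, 48.3 and 82.3 CPM, with no overlap, and passed with the replicate number only (log2 fold change -1.32, edgeR adjusted p = 0.00903).

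*Ndc80*, a kinetochore gene, had the lowest log2 fold change of the list without the replicate number (-1.47), and *Cenpf* the highest (-0.77). *Ccnb2* and *Cdc20*, whose promoters are shown above, were at 29.4, 5.30 and 20.0 CPM against 63.8, 26.9 and 60.5 CPM and at 34.9, 6.94 and 22.3 CPM against 87.8, 32.9 and 56.1 CPM. With the replicate number, 20, 21 and 0 of the 24 passed without pair 1, 2 or 3. The list's median log2 fold change in these fits was -1.48, -1.18 and -1.38, against -1.35 with all pairs, and the lower calls over all genes went from 158 to 3 without pair 3. Summed over the list, the level was 1255, 294 and 712 CPM against 2378, 919 and 1803 CPM.

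Genes of DNA replication followed, with 23 of 24 lower in all 3 pairs, 8 lower with the replicate number and none without it (median log2 fold change -0.93, and -0.48 without myoblast-enriched replicate 1). The 8 became 1, 11 and 0 without pair 1, 2 or 3. *Cdc6*, a licensing factor, was lowest (-1.32) and *Rrm2*, a subunit of ribonucleotide reductase, was least changed (-0.49). Among 13 tested genes of cell cycle exit, none passed in either fit (median -0.22, and -0.01 and -0.45 without myotube-enriched replicate 2 or 3). *Cdkn1a*, the inhibitor p21, was at 1161, 1131 and 1808 CPM against 789, 1137 and 906 CPM, and *Ccnd1*, cyclin D1, was lower in all 3 pairs (log2 fold change -0.85) without passing by both criteria.

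Markers of satellite and reserve cells were on balance lower in the myotube-enriched fraction. Of 17 tested, none passed without the replicate number and 3 were lower with it, namely the Notch target *Hey1*, the receptor *Fgfr4* and the chemokine receptor *Cxcr4*. The median log2 fold change was -0.60. It was -0.97 without myotube-enriched replicate 1, where 4 were lower, -0.35 without myotube-enriched replicate 2 and -0.40 without myoblast-enriched replicate 1. The 3 calls became 3, 2 and 0 without pair 1, 2 or 3. *Hey1* was at 8.58, 3.75 and 5.70 CPM against 19.8, 17.7 and 16.7 CPM, with no overlap (log2 fold change -1.64 with the replicate number, standard error 0.235, edgeR adjusted p = 0.0171). *Pax7*, the satellite cell transcription factor, was at 90.8, 52.4 and 50.7 CPM against 126, 77.2 and 95.4 CPM. It was lower in all 3 pairs and did not pass (log2 fold change -0.60, edgeR adjusted p = 0.324). *Megf10* was the highest of the list at 0.33.

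Collagen genes differed unequally between the pairs. None of 18 tested passed in either fit. The median log2 fold change of -0.51 was -1.02 without myotube-enriched replicate 1 and -0.24 without myotube-enriched replicate 2. Within pairs 1, 2 and 3 the median log2 difference was 0.08, -1.33 and -0.71. *Col3a1*, a fibrillar collagen, was at 13396, 3296 and 8925 CPM against 12826, 13383 and 13729 CPM, and *Col1a1* at 1434, 119 and 951 CPM against 1128, 829 and 1405 CPM. Both genes were slightly higher in the myotube-enriched library of pair 1 and lower in those of pairs 2 and 3. *Fn1*, fibronectin, was at 7851, 1481 and 5544 CPM against 6481, 2197 and 6562 CPM. Of 22 tested matricellular and protease genes, none passed in either fit (median -0.44, and -0.76, -0.13 and -0.28 without myotube-enriched replicate 1, myotube-enriched replicate 2 or myoblast-enriched replicate 3), from *Lum* (-1.01) to *Timp2* (0.27).

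Markers of other cell types were checked in the same libraries. Of 5 endothelial markers none was high enough to be tested, with a summed level of at most 1.20 CPM, and *Kdr* and *Tie1* had no count in any of the 6 libraries. Of 7 adipocyte markers, 6 had at most 3 counts in each library and *Cfd* and *Cidec* had none, while *Pparg* was tested and did not pass (log2 fold change -0.46). Of 6 immune markers, 4 had at most 3 counts in each library, and *Csf1r* (log2 fold change -0.73) and *Cd68* (0.75) were tested and did not pass. Fibroblast-type genes were expressed, with *Dpt* between 59.5 and 309 CPM, and their summed level was 459, 129 and 375 CPM in the myotube-enriched replicates against 469, 527 and 543 CPM. This sum was lowest in myotube-enriched replicate 2, as were the collagens, and its part in the collagen levels was not tested.

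RNA encoded by the mitochondrial genome was higher in the myotube-enriched fraction. These 13 messenger RNAs were examined after their values were seen. Their summed level was 90170, 110098 and 77222 CPM in the myotube-enriched replicates and 43738, 73975 and 39170 CPM in the myoblast-enriched ones, with no overlap. All 13 had a positive log2 fold change (median 0.98), 1 was higher without the replicate number and 6 with it. The 6 became 1, 9 and 0 without pair 1, 2 or 3. The gene that passed in both fits, *mt-Nd4l*, a subunit of complex I, was at 295, 446 and 268 CPM against 110.1, 142 and 99.5 CPM (log2 fold change 1.54, standard error 0.246, edgeR adjusted p = 0.0434), and its gene overlaps *mt-Nd4*. The nuclear genes of the respiratory chain and ATP synthase differed less, with a median of 0.24 over 89 tested, none higher without the replicate number and 2 with it. The median was 0.09 without myotube-enriched replicate 3 and 0.14 without myoblast-enriched replicate 1, and the 2 became 1, 3 and 0 without pair 1, 2 or 3. Their largest difference was in *Cox7a1*, the muscle isoform of a complex IV subunit, at 6.68, 12.7 and 11.9 CPM against 1.46, 3.24 and 2.09 CPM (log2 fold change 2.22).

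Of 81 tested cytosolic ribosomal protein genes, also examined after their values were seen, 79 had a negative log2 fold change (median -0.33). The median was -0.22, -0.51 and -0.21 without myotube-enriched replicate 2, myotube-enriched replicate 3 or myoblast-enriched replicate 2. None was called lower in either fit. *Rpl3l*, a striated muscle paralogue of *Rpl3*, had the opposite direction at 0.526, 1.59 and 2.16 CPM against 0, 0.282 and 0.217 CPM, and was higher with the replicate number only, and not without pair 1 or pair 3. *Rpl3* itself was at 1119.96, 856 and 1319 CPM against 1236, 1721 and 1504 CPM. In the fractions of dox-treated cultures, read below, 76 of the 81 genes had a positive log2 fold change (median 0.33). The direction of the list was thus opposite with dox.

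The promoter windows of these groups were compared in the letters of the 2 motifs shown above. A RefSeq window was found for 54 of the 80 genes higher without the replicate number, and CAGCTG, which reads the same on both strands, stood in 23 of their 70 windows (32.9%). It stood in 2056 of the 13067 windows of all genes tested (15.7%) and in 20 of the 134 windows of the genes lower with the replicate number (14.9%). TTTGAA on either strand stood in 56 of these 134 windows (41.8%), in 7 of the 70 windows of the higher genes (10%) and in 1552 of all 13067 (11.9%). In the mitosis list it stood in 16 of 21 windows (76.2%). The 2 motifs cannot overlap each other, windows of one gene may overlap, and a match describes letters only.

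The genes of this comparison were followed in whole cultures of the same line without dox, which share no library with the fractions. The cultures at 24 and 48 h were deposited in different tables, so that time and batch cannot be told apart between them. Of the 80 genes higher in the myotube-enriched fraction, 74 were tested from 24 to 48 h, and 62 rose (83.8%, Wilson 95% confidence interval 73.8% to 90.5%) and 3 fell, against 19.3% and 11.1% of all 14017 genes tested. From 48 to 120 h, 30 of 75 tested rose (40.0%) and 5 fell, against 11.7% and 18.1% of all 13786 genes. *Myh1* was at a mean of 0.0718, 116 and 694 CPM at 24, 48 and 120 h and *Mef2c* at 0.0660, 7.52 and 278 CPM. *Actc1*, which differed little between the fractions, was at 2612 CPM at 48 h and 1760.4 CPM at 120 h. Across 163 tested genes of the muscle lists, the fraction difference and the change from 48 to 120 h had a Spearman correlation of 0.39, against 0.34 across all 13467 genes, where genes are not independent and share libraries within each measure.

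Of the 158 genes lower with the replicate number, 64 rose from 24 to 48 h (40.5%) and 2 fell. From 48 to 120 h, 157 were tested, and 147 fell (93.6%) while 1 rose. The whole culture at 120 h lay between the fraction means for 47 of the 80 higher genes (58.8%), above both for 21 and below both for 12, against 14.03% of all genes between, 5371 above both and 6685 below both. The 80 genes were chosen for a wide gap between these same means. A larger share between them follows in part from that choice, and no conclusion is drawn from it. For the 158 lower genes it lay between them for 18 (11.4%) and below both for 137. By group means, all 24 mitosis genes were below both fractions in the whole culture, as were 16 of 17 interferon genes, 71 of 89 nuclear respiratory chain genes and 65 of 81 cytosolic ribosomal protein genes. Every culture library lay below all 6 fraction libraries for 1, 9, 41 and 30 genes of these lists in turn. Most members were above both in the dystrophin-glycoprotein complex (10 of 14), the other adhesion genes (14 of 21), the ubiquitin ligases (8 of 11), the fusion genes (7 of 13) and the imprinted genes (5 of 9). Of all 14023 genes tested, 5371 were above both, so the small majorities of the last 2 lists carry little. The 5 adhesion candidates of the study were all below both. For 3 of these 5, every culture library lay below all 6 fraction libraries. *Ndc80* averaged 7.56 CPM there, 11.1 ± 7.16 CPM (SD, n = 3) in the myotube-enriched fraction and 31.1 ± 9.81 CPM (SD, n = 3) in the myoblast-enriched one. *Id3* averaged 9.59 CPM in the whole culture, 34.8 ± 1.76 CPM in the myotube-enriched fraction and 75.5 ± 2.18 CPM in the myoblast-enriched one (SD, n = 3). Whole cultures were not passed through the strainer and were deposited in another table than the fractions, so that batch, handling and composition cannot be told apart in this comparison.

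**Figure D4:**
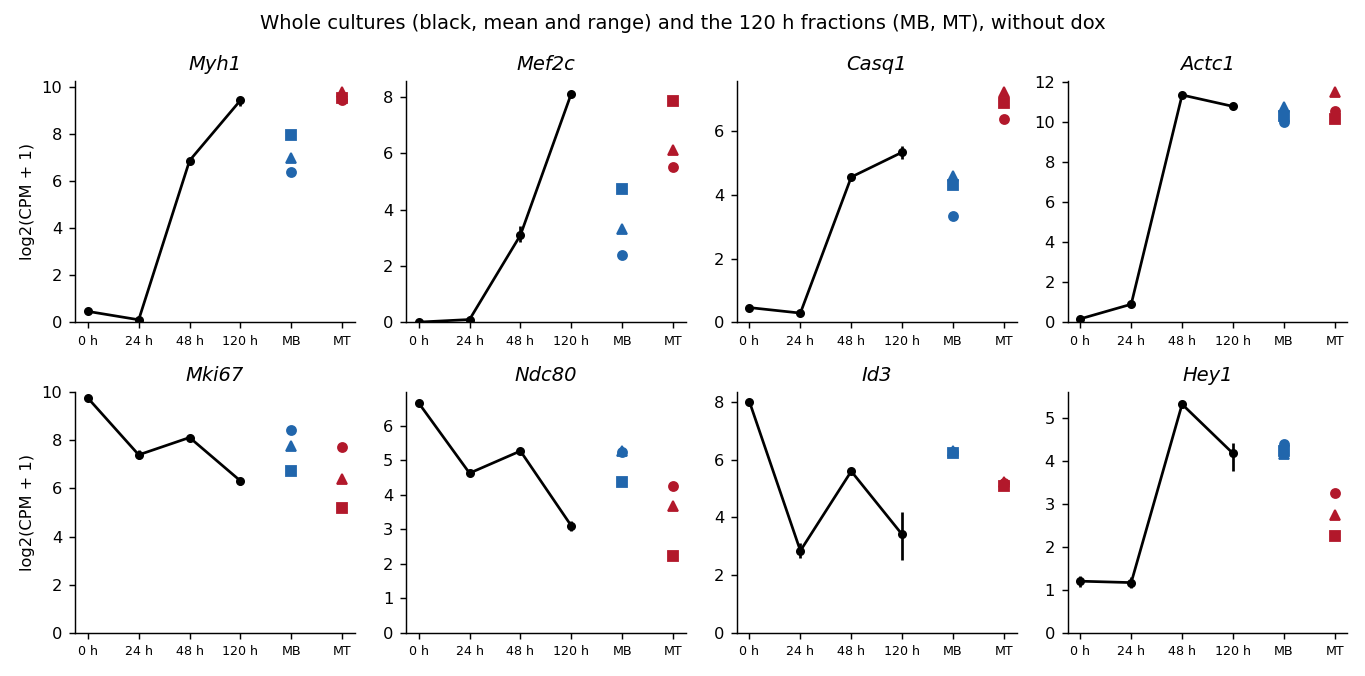
Level of 8 genes as log2(CPM + 1) in whole cultures at 0, 24, 48 and 120 h (black points are means and bars the range of 3 libraries) and in the myoblast-enriched (MB, blue) and myotube-enriched (MT, red) fractions at 120 h, all without dox, with 1 coloured point per library. *Myh1*, *Mef2c* and *Casq1* rise through 120 h and are higher in MT, while *Ndc80* and *Id3* in MB lie above the whole culture at 120 h.

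The fractions of dox-treated cultures, 3 myotube-enriched and 2 myoblast-enriched libraries that do not enter the comparison above, allowed the same genes to be read in other samples. No gene passed there among 14291 tested, with edgeR (183 genes, or 1.28%, at an unadjusted p under 0.05), with DESeq2 (446, or 3.12%) or with the replicate number (367, or 2.57%). Of the 80 genes higher without dox, 76 were tested with dox, and 75 had a positive log2 fold change (median 1.47, against 1.93 for the same genes without dox and 0.04 for all genes with dox). Of the 158 genes lower with the replicate number, 155 of the 157 tested with dox were negative (median -1.01). Of all 13785 genes tested in both comparisons, 7606 were positive with dox (55.2%) and 6179 negative. Not every list kept its direction. With dox the median was 0.31 for the collagens (15 of 18 positive) and 0.20 for the matricellular and protease genes (20 of 22 positive). It was 0.71 for the fibroblast-type genes (4 of 5 positive) and -0.46 for the adhesion candidates (1 of 5 positive). These 4 medians had the opposite sign without dox. All 23 thick filament genes were positive with dox and all 24 mitosis genes negative. *Myh1* had a log2 fold change of 4.18 with dox, *Casq1* of 2.89 and *Id3* of -0.82. The difference between the fraction effects without and with dox was tested as an interaction, and no gene passed among 15008 with edgeR (218, or 1.45%, at an unadjusted p under 0.05) or with the replicate number (191, or 1.27%). With DESeq2, 1 gene passed in each direction (0.00666% each).

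**Figure D5:**
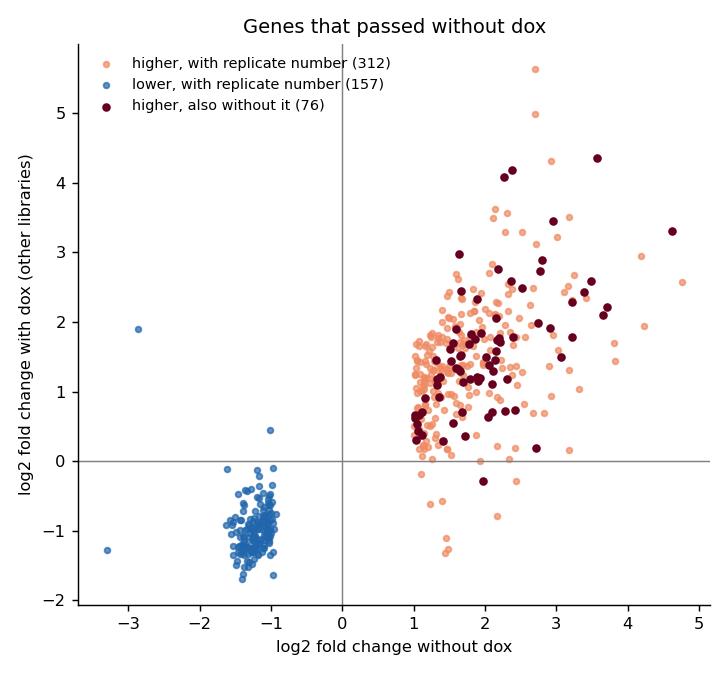
Log2 fold change between the fractions without dox (horizontal axis) and with dox (vertical axis, other libraries), with 1 point per gene that passed without dox. Dark points passed without the replicate number, orange and blue points with it, and 75 of the 76 dark points and 155 of the 157 blue points keep their sign with dox.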

How the data were processed

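PolyA-selected RNA of the iMyoD1 line was sequenced in read pairs and processed by the authors with nf-core/rnaseq. The authors deposited salmon's estimated counts per transcript, not scaled to depth or length. The submitters' processing notes name Salmon and mm10, and strandedness is not given in the sources used here.

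Expected counts were summed per gene and rounded. GENCODE vM21 on GRCm38 matched 98.77% of 45706 genes. TPM used its transcript lengths. edgeR 4.0.16 (R 4.3.3) was used with filterByExpr, TMM scaling and its quasi-likelihood test, adjusted by Benjamini-Hochberg. A gene passed with an adjusted p below 0.05 and more than a 2-fold difference. Standard errors came from the F statistic. For 3 against 3, the smallest two-sided exact permutation p is 0.1. Alternatives were DESeq2 1.42.0, other scalings, no filter, all fractions in a single fit, the replicate number and each library left out. The scripts were tested on simulated data.

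The labels name biological replicates and do not say that numbers mark shared cultures. Residuals of same-numbered libraries correlated at 0.413, 0.117 and 0.189, over 0.1 in every pair, so the number was treated as pairing. Myotube-enriched replicate 3 correlated more with myoblast-enriched replicate 2, at 0.285. No replicates agreed within sampling noise (chi-square per gene at least 34.5).

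The members, the 30 gene lists and the tests were chosen with earlier results of these data known. The lists of mitochondrially encoded RNAs, nuclear respiratory chain genes, cytosolic ribosomal proteins and mitochondrial ribosomal proteins were added to these 30 after values had been seen. Named genes are the 10 most changed in each direction that passed, reached 5 CPM and did not overlap (2 were available downward), the extremes of lists and fixed muscle, cycle, matrix and adhesion genes. Other members named as examples, among them those with printed promoters, were chosen after their values were seen. Some genes that the rule names are not reported here. Counts were made without molecular identifiers. The Wilson intervals on shares of genes treat genes as independent draws, which genes regulated together are not. They do not cover variation between libraries.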

Additional observations from a re-analysis of the deposited data

Results flagged for a closer look

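Of 15008 genes tested for a difference between the fraction effect without dox and with dox, 2 passed with DESeq2 and none with edgeR. *Gm10053*, a predicted gene, had a DESeq2 log2 difference of 2.75 (adjusted p = 8.14e-06, edgeR adjusted p = 0.664). It was at 8.42, 11.2 and 16.2 CPM in the myotube-enriched and 3.94, 4.72 and 4.83 CPM in the myoblast-enriched libraries without dox, and at 5.82, 5.35 and 4.39 CPM against 12.4 and 13.9 CPM with dox, so that the direction was opposite in every library. *Ostn*, the secreted factor osteocrin, had a DESeq2 log2 difference of -23.12 (adjusted p = 6.71e-05, not passing with edgeR), which rests on 1 library, myotube-enriched replicate 2 with dox at 6.86 CPM, with no count in the other 4 libraries with dox and between 0.0399 and 1.27 CPM without dox.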

How the results depend on the processing

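Against 80 genes higher and 2 lower without dox, DESeq2 gave 399 and 61, no low-count filter 322 and 43, and the replicate block 322 and 158. All 4 fraction groups in a single fit gave 0 and 0 (1262 genes at an unadjusted p under 0.05). Leaving out single libraries gave 0 to 206 higher and 0 to 27 lower genes. With the replicate block and both libraries of a number left out, an alternative chosen after seeing the data, it was 162 and 65 without number 1, 686 and 223 without number 2, and 44 and 3 without number 3. RLE scaling, total counts alone and no fold threshold stayed within 1.5 times. DESeq2 kept all 80 of the higher genes and the fit with total counts 58 of them. With dox, no alternative gave a call. In the interaction, DESeq2 gave 1 gene higher and 1 lower, and the other alternatives none. The shares of higher genes that rose or fell from 24 to 48 h and that lay between the fractions in the whole culture stayed within their confidence intervals under the alternatives tried. The direction of a named gene that passed did not change in any of them. The cause of these changes was not tested. Genes with at most 3 counts in each library allow no fold.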

Other observations

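Genes of cholesterol synthesis tended to be higher in the myotube-enriched fraction. Of 16 tested, 14 had a positive log2 fold change (median 0.36, and 0.55 without myoblast-enriched replicate 1), none passed without the replicate number, and *Mvd* and *Dhcr7* were higher with it, which became 1, 1 and 0 genes without pair 1, 2 or 3. *Dhcr7*, the last enzyme of the pathway to cholesterol, was at 129, 102 and 242 CPM against 56.1, 71.2 and 76.6 CPM. Of the imprinted genes, *Mest* was at 169.8, 90.4 and 87.9 CPM against 490.1, 159 and 287 CPM and was lower with the replicate number (log2 fold change -1.33, edgeR adjusted p = 0.0205), while none of the other 8 tested passed. *Igf2* was at 431, 510.4 and 885 CPM against 201, 441 and 401 CPM, and *H19* at 4528, 2664 and 8877 CPM against 3515, 5193 and 4782 CPM.

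Genes of the interferon response had a median log2 fold change of -0.38 over 17 tested and none passed in either fit. Among 16 tested cytokines and chemokines (median -0.44), *Fst*, follistatin, was higher with the replicate number (log2 fold change 1.12), and *Il6* was lowest at -1.35 and did not pass. Genes of the actin stress fibre had a median of -0.36 over 19 tested, with *Tagln2* lower with the replicate number. Of 21 other adhesion genes tested, none passed (median -0.06). The immediate-early and heat shock genes that dissociation can induce had a median of -0.16 over 19 tested and none passed, with *Fos* at 11.3, 6.94 and 9.83 CPM against 6.003, 5.46 and 10.2 CPM and *Egr1* at 304, 159 and 275 CPM against 301, 155 and 373 CPM. Both fractions were dissociated, so a response they share cannot show here. In the whole culture at 120 h, 12 of the 19 were below both fractions, 5 above both and 2 between. Every culture library lay below all 6 fraction libraries for 10 of them. Over all 14023 genes, 6685 were below both. An effect of dissociation was not tested. The nuclear RNAs *Malat1* and *Neat1* had log2 fold changes of 0.58 and 0.79, did not overlap between the fractions and did not pass. Of 2 tested osteoblast and chondrocyte markers, *Runx2* had a log2 fold change of -0.36 and *Sox9* of 0.02. The 78 tested mitochondrial ribosomal protein genes had a median of -0.03, and none passed. With single libraries left out, the medians ran from -0.50 to -0.11 for the interferon response, -0.64 to -0.22 for cytokines, -0.24 to 0.10 for the other adhesion genes, -0.34 to -0.01 for the immediate-early and heat shock genes, -0.30 to 0.38 for the imprinted genes, 0.37 to 0.77 for the nuclear RNAs and -0.08 to 0.08 for the mitochondrial ribosomal proteins. With the replicate number and pair 3 left out, none of the genes of these lists passed. Without pair 1, no imprinted or cytokine gene passed and 1 actin stress fibre gene was lower. Without pair 2, no actin stress fibre gene passed, 2 imprinted genes were higher and 1 lower, and 1 cytokine gene was higher and 2 lower. In that fit 1 other adhesion gene and 1 immediate-early or heat shock gene were also higher.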
